A study of Mus musculus with 18 samples.

Results

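The 4 Hox clusters of the mouse, Hoxa, Hoxb, Hoxc and Hoxd, were followed in embryonic stem (ES) cells, in the differentiated (ED) cells derived from them, and in both after irradiation. Members were chosen by identity alone, as every array probe whose accession belongs in RefSeq to a protein-coding Hox gene numbered 1 to 13. All 39 such genes had a probe, 41 probes in all out of 37246 gene probes on the array, with 11 Hoxa, 10 Hoxb, 9 Hoxc and 9 Hoxd genes. Hoxa10 and Hoxb3 had 2 probes each. The ES cells came from mouse blastocysts and were kept in medium with leukemia inhibitory factor (LIF) on gelatin without feeder cells. The paper describes the ED cells as isogenic to them, made by undirected differentiation over 4 or more days without LIF and beta-mercaptoethanol. They are a bulk population with no selection of a cell type described. The sample titles of the unirradiated ED arrays call them "differentiated primary non-stem cells". Each type was unirradiated (ES, ED), collected 15 min after 10 Gy (ESRE, EDRE) or collected 4 h after 10 Gy (ESRL, EDRL), with 3 arrays in each of the 6 groups and 1 sample on each of the 18 arrays. Nothing states that the replicates were separate cultures, so the p-values measure the spread between these samples, which may be technical.

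Hox genes encode homeodomain transcription factors that give cells along the body axis their positional identity. The genes of a cluster lie side by side in the order of their numbers, and low numbers are known to switch on earlier and more anteriorly than high numbers, a property called collinearity. In ES cells the clusters are known to be held silent or nearly so by Polycomb complexes, while low-numbered genes respond early to retinoic acid, Wnt and FGF signals. Mesenchymal cells in culture are known to keep the Hox pattern of the place they came from, and the high numbers of Hoxa and Hoxd pattern the limb, the genitals and the end of the trunk.

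Values are log2 signals minus the 75th percentile of the same array, so 0 is that percentile itself and a step of 1 is a 2-fold difference. Levels of different probes are not comparable on this scale, and only differences between arrays of the same probe are compared. A probe counted as detected in a group when the scanner software marked it well above background on all 3 arrays. The 75th percentile was 2806 to 4268 units on 15 arrays but 1952 in replicate 1 of ESRL, and 875 and 1155 in replicates 2 and 3 of EDRE, where 24.4% and 23.8% of spots were marked as outliers and left out. In replicate 2 of EDRE 13282 probes, 12 of them Hox, shared the lowest value of that array, -6.59, and in replicate 1 of ED 3953 probes, 1 of them Hox (Hoxc11), shared -10.01; such values have no order among themselves. In ED 6 of 7 tested pluripotency markers fell, with Pou5f1, the core stem cell factor Oct4, lower by -10.29 on the log2 scale, and 8 of 10 mesenchymal markers rose, with the limb mesenchyme factor Prrx1 higher by 8.21 and S100a4 by 10.20.

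Detection was broad in both cell types, and most probes of any kind passed the same mark. On single arrays 81.4% to 86.1% of all probes were well above background in ES and 72.1% to 77.9% in ED. In ES cells 35 of 39 Hox genes were detected, all but Hoxa6, Hoxc11, Hoxd3 and Hoxd10. In ED cells 31 were detected, and the missing 8 included Hoxb1, Hoxb13, Hoxc5, Hoxc9, Hoxc11, Hoxc13 and Hoxd1. After irradiation, EDRL had 31 and ESRE 28 detected genes, and the groups that hold a dim array had the lowest counts, 24 for ESRL and 22 for EDRE. Hoxc11 was not well above background on any array, and 16 genes were detected in every group. Array signal does not separate a few cells with much RNA from many cells with little, so fewer cells of a type and less RNA per cell cannot be told apart in any comparison here.

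The comparison of ED with ES cells asked which genes differ between stem cells and their differentiated progeny. Of 37 Hox genes tested, 19 rose in ED cells and 9 fell by more than 2-fold at an adjusted p under 0.05 (limma with Benjamini-Hochberg adjustment over all probes). Across all genes tested 14.9% rose and 26.7% fell, 41.5% in either direction. The median change was 1.47 on the log2 scale over the tested Hox genes, taking 1 probe a gene, and -0.19 over all probes tested. The clusters went different ways. In Hoxd all 9 genes changed, 8 up and 1 down, and in Hoxa 8 rose and 1 fell of 10 tested. In Hoxb 3 rose and 4 fell of 10, and in Hoxc none rose and 3 fell of 8. With each array set to its own median the Hox counts were 22 up and 8 down, and the median of all probes then moved from -0.19 to 0.46.

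**Figure D1:**
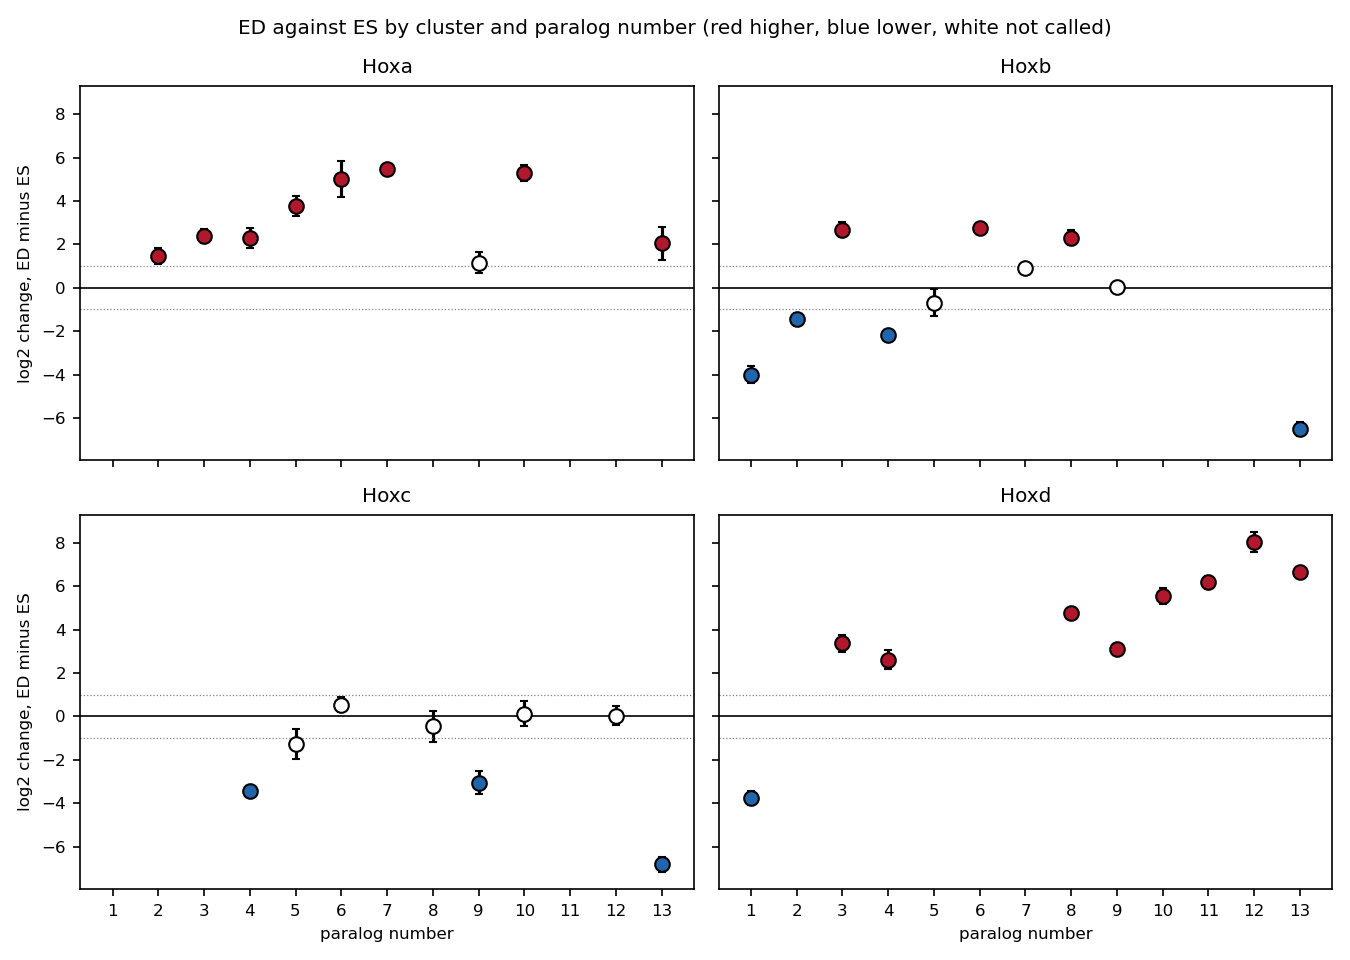
Log2 change of Hox genes, ED minus ES (vertical axis, error bars are standard errors of the fit, 3 arrays a group less outlier spots), against paralog number (horizontal axis), 1 panel a cluster. Red points rose, blue points fell, white points did not pass; dotted lines mark the 2-fold limit, and Hoxa11 and Hoxc11 were not tested. In the Hoxd panel the changes run from -3.74 at Hoxd1 to 8.04 at Hoxd12, while no Hoxc gene lies above the upper dotted line.

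The posterior Hoxd genes, which pattern digits and genitalia, carried the largest increases of that cluster. Hoxd13, the last of the cluster, was -1.85, -1.95 and -2.09 in the ES arrays and 4.72, 4.62 and 4.67 in the ED arrays. Every ED array lay far above every ES array, and the change was 6.64 (SE 0.15, adjusted p = 1.8e-12). Hoxd12 went from -6.43, -5.80 and -6.18 to 2.21, 1.83 and 1.67, a change of 8.04 (SE 0.47, adjusted p = 1.47e-09), the largest of any Hox probe. All 3 of its ES spots were marked well above background.

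Next to them, Hoxd11 was -6.63, -6.45 and -6.04 in ES and 0.09, -0.11 and -0.58 in ED, a change of 6.17 (SE 0.28, adjusted p = 3e-10). Hoxd10, a limb and spinal motor column gene, was not well above background on any of the 9 arrays of unirradiated or irradiated ES cells and was -2.85, -3.11 and -3.05 in ED, at least 28.5-fold higher (adjusted p = 7.89e-09). Hoxd9 was -3.53, -3.67 and -3.36 in ES and -0.45, -0.52 and -0.30 in ED, a smaller rise of 3.10 (SE 0.18, adjusted p = 1.29e-08). These neighbours all rose, by different amounts.

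In the middle of the cluster Hoxd8 rose by 4.77 (SE 0.18, adjusted p = 6.72e-09) with 2 usable ED arrays, at 1.38 and 1.46 against -3.24, -3.37 and -3.43. Hoxd4, a hindbrain and neck vertebra gene, was -4.95, -4.88 and -4.51 in ES and -2.18, -2.24 and -2.05 in ED, and rose by 2.62 (SE 0.44, adjusted p = 0.000188). Hoxd3 was not well above background on any ES array and -6.25, -6.82 and -7.08 in ED, at least 2.17-fold higher. Only its ED arrays brought this gene into the test. Its fitted change was 3.38 (SE 0.39, adjusted p = 3.12e-06, limma). With normexp background correction the change was 0.60 and the call was lost. Hoxd1, at the other end, went the opposite way. It was -3.59, -3.72 and -3.75 in ES and -7.56, -7.38 and -7.35 in ED, where 1 array of 3 was well above background, a fall of -3.74 on the log2 scale (SE 0.32, adjusted p = 1.23e-07).

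Promoters of both ends of the Hoxd cluster are shown because the genes of its opposite ends moved in opposite directions. RefSeq promoter windows, 250 bases before to 50 after the start on build GRCm38.p6, were at hand for 22 of the 39 genes, 24 windows in all. The 3 below are on the plus strand, written 5′ to 3′ in lower case, with capitals where a CCAAT box, a TATAAA box or TTTATG, a Cdx-type site, was found on either strand; overlapping matches run together.
Hoxd13 chr2:74667975-74668274: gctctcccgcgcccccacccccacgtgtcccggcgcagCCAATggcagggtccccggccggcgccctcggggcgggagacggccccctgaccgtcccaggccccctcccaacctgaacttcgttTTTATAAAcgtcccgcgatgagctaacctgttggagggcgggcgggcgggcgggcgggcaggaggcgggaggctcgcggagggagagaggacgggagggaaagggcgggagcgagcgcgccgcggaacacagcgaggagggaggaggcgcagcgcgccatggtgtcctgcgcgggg
Hoxd12 chr2:74674763-74675062: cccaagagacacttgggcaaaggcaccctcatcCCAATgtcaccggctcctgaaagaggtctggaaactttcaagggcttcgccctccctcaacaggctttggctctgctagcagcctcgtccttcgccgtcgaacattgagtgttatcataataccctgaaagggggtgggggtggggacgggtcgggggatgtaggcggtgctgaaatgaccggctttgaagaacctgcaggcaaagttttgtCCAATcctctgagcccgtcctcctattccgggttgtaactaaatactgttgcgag
Hoxd1 chr2:74762730-74763029: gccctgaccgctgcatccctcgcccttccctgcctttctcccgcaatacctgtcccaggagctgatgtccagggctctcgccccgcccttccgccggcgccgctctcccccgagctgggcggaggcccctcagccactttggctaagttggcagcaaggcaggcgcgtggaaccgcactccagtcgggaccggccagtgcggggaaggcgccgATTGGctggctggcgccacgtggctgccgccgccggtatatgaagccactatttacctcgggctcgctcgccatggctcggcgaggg

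All 3 windows held the CCAAT box, on the minus strand in Hoxd1, and 37.4% of all 32851 windows hold it. The TATA box, found in 13.6% of all windows, was in the Hoxd13 window, where it overlaps its own reverse match. The windows held 37, 13 and 29 CG dinucleotides, against a median of 7 in all windows and 14.5 over the 24 Hox windows. A match describes letters only.

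**Figure D2:**
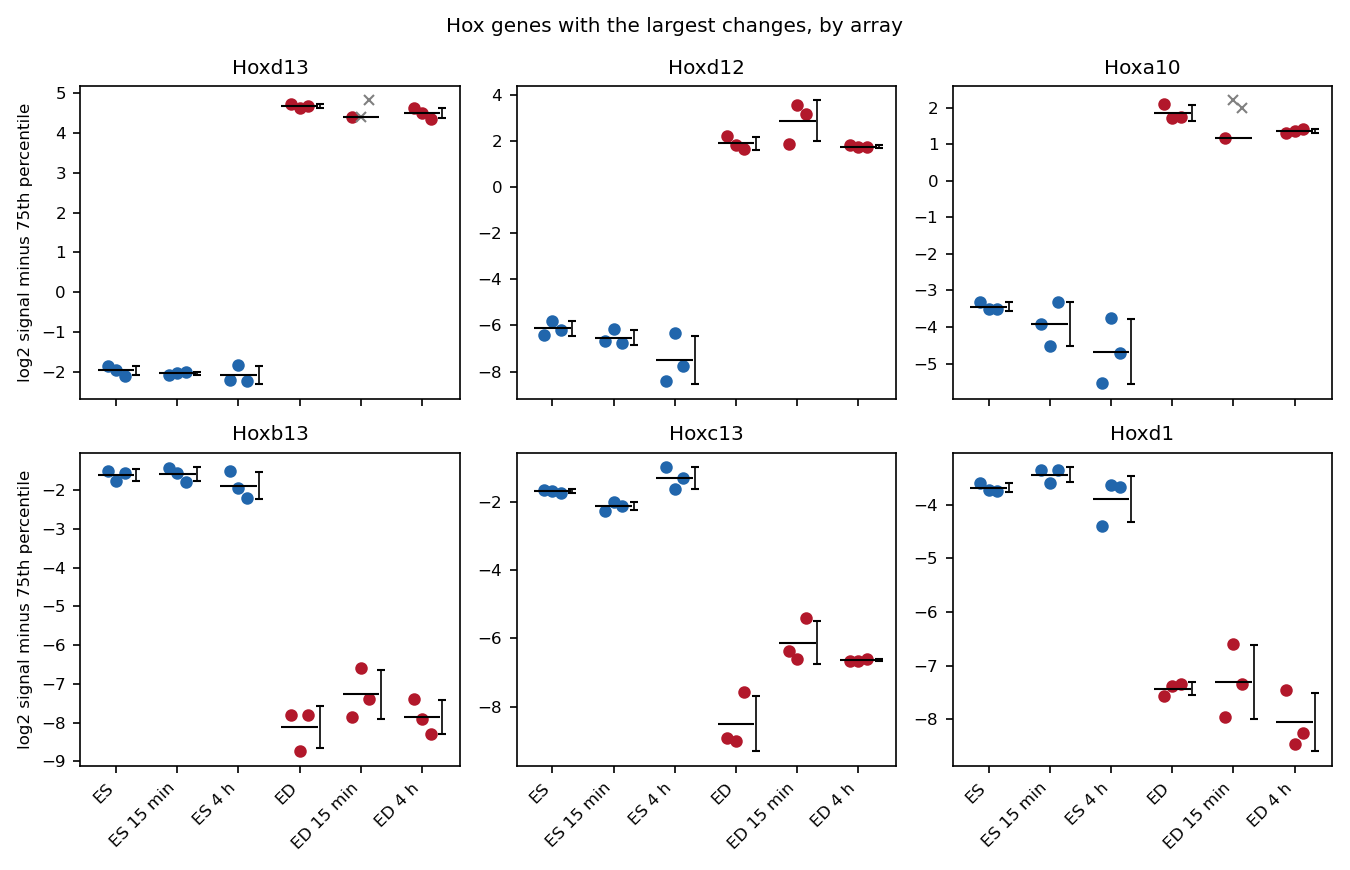
Log2 signal minus the array's 75th percentile (vertical axis, own scale in each panel) on each of 18 arrays by group for 6 Hox genes with large changes. Blue points are ES-type and red points ED-type arrays, grey crosses are outlier spots left out, lines are group means and bars SD. Hoxd13, Hoxd12 and Hoxa10 are higher, and Hoxb13, Hoxc13 and Hoxd1 lower, in every usable ED-type array than in any ES-type array.

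In the Hoxa cluster the rise ran from Hoxa2 to Hoxa10, apart from Hoxa9, which did not pass. Hoxa10, a gene of the uterus and the upper limb, was -3.31, -3.52 and -3.50 in ES and 2.09, 1.70 and 1.75 in ED on its brighter probe, a change of 5.29 (SE 0.38, adjusted p = 8.18e-08). Its dimmer probe gave 7.19 (SE 0.38, adjusted p = 9.93e-09), so both probes rose and differed in size. Hoxa7 was -4.38, -4.63 and -4.42 in ES and 1.10 and 0.90 on the 2 usable ED arrays, a change of 5.48 (SE 0.20, adjusted p = 3.47e-10).

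Hoxa6 was not well above background on any of the 3 ES arrays and -3.39, -3.50 and -3.78 in ED, at least 19.4-fold higher (adjusted p = 0.000122, limma). Hoxa5, a gene of lung and trachea development, went from -5.80, -5.67 and -5.72 to -2.28, -1.99 and -1.64, a change of 3.76 (SE 0.47, adjusted p = 6.99e-06). The rises of the lower numbers were smaller, 2.30 for Hoxa4, 2.38 for Hoxa3, each with 2 usable ED arrays, and 1.47 for Hoxa2, the gene of the second branchial arch (SE 0.46, 0.33 and 0.38). All 5 of these genes were called higher, as were 14.9% of all genes tested.

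Hoxa13, needed for digits and the hindgut, was -6.92, -6.20 and -6.37 in ES and -3.96, -4.38 and -4.97 in ED, a rise of 2.06 (SE 0.76, adjusted p = 0.0353). That call was kept when only 1 of the 6 ED and ES arrays was left out in turn, and it was lost with the other 5 and when outlier spots were kept. Hoxa9 was higher in every ED array, by 1.16, but did not pass (SE 0.49, adjusted p = 0.0588).

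Hoxa11 could not be tested between ED and ES, because its spot was marked as an outlier on all 3 ED arrays. Those marked spots read 2.26, 2.78 and 2.82, against -4.66, -4.86 and -4.84 in ES, and with outlier spots kept the change was 7.41 (SE 0.59, adjusted p = 3.33e-08). In the irradiated arrays, where usable spots remained, it was 2.77, 2.94 and 2.83 in EDRL and -7.60, -4.57 and -5.41 in ESRL, a difference of 8.71 (SE 0.59, adjusted p = 2.07e-07). The antisense transcript of the locus, Hoxa11os, has its own probe and rose by 6.30 in ED (SE 0.29, adjusted p = 9.41e-10).

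The Hoxb cluster was mixed gene by gene. Hoxb6 was -4.66, -4.75 and -5.02 in ES and -2.10, -2.23 and -1.86 in ED, a rise of 2.75 (SE 0.20, adjusted p = 2.01e-08). The 2 probes of Hoxb3 rose by 2.67 and 2.55, and Hoxb8, a trunk gene also used by blood progenitors, rose by 2.30 from -6.94, -6.74 and -6.69 to -4.72, -4.47 and -4.29. Hoxb7 was higher in every ED array by 0.89, under the 2-fold limit (adjusted p = 0.00333). The values of Hoxb5 and Hoxb9 overlapped between the cell types, with changes of -0.68 and 0.02.

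Falls in Hoxb lay at both ends and at Hoxb4. Hoxb13, the last gene of the cluster and a gene of the prostate and tail, was -1.50, -1.78 and -1.56 in ES and not well above background on any ED array, at least 58.3-fold lower (adjusted p = 4.22e-10). Hoxb1, which sets a hindbrain segment, was -4.24, -4.60 and -4.19 in ES and likewise not well above background in ED, at least 8.86-fold lower (adjusted p = 7.84e-07, limma). Hoxb2 fell by -1.45 on the log2 scale (SE 0.29, adjusted p = 0.000775), with 2 usable ES arrays, at -2.50 and -2.90, against -4.18, -4.02 and -4.26; this was -0.71 to -1.65 over the alternatives and was lost when arrays were set to their medians, quantile normalized or taken from the deposited table.

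No Hoxc gene rose in ED. Hoxc13, a hair and nail gene, was -1.64, -1.67 and -1.74 in ES and not well above background in ED, at least 55.9-fold lower (adjusted p = 3.75e-10). Hoxc4 fell from -1.63, -1.79 and -1.76 to -5.32, -5.32 and -4.83, a change of -3.43 (SE 0.18, adjusted p = 6.33e-10). Hoxc9 was -4.41, -4.39 and -4.46 in ES and -7.90, -6.23 and -8.31 in ED, where 1 array was well above background (change -3.06, SE 0.53, adjusted p = 0.000176).

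The other Hoxc genes did not pass. Hoxc10, a hindlimb and lumbar gene, was -0.92, -0.76 and -0.83 in ES and -0.73, -0.82 and -0.55 in ED (change 0.13, SE 0.57, adjusted p = 0.88). Hoxc12 differed by 0.03 and Hoxc6 by 0.54, and Hoxc5 and Hoxc8 by -1.27 and -0.46. Of these, only Hoxc6 and Hoxc5 had no overlap between ED and ES arrays, and the share of all probes without such overlap is not given here. Differences are common in this comparison, where 56.2% of all probes had an unadjusted p under 0.05 (limma).

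Read by number instead of by cluster, paralog groups 2, 4, 9 and 13 held genes called in both directions, 1 up and 1 down in groups 2 and 9, 2 up and 2 down in groups 4 and 13. By region, 4 of 8 anterior genes (1 to 3) rose and 4 fell, 8 of 15 central genes (4 to 8) rose and 2 fell, and 7 of 14 tested posterior genes (9 to 13) rose and 3 fell. Of 35 pairs of genes next to each other in number within a cluster, both were called the same way in 13 and opposite ways in 4. These counts are descriptions, with no test of the difference between clusters or groups. Across all genes tested 14.9% rose and 26.7% fell.

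Paralog group 4 shows the split within 1 group of related genes. Hoxa4 was -4.32, -4.63 and -4.17 in ES and -2.12 and -2.03 on the usable ED arrays. Hoxb4, known for its role in blood stem cell expansion, went the other way, from -1.28, -1.41 and -1.24 to -3.62, -3.50 and -3.35, a change of -2.18 (SE 0.24, adjusted p = 2.22e-06). Hoxa4 and Hoxd4 rose, and Hoxb4 and Hoxc4 fell. The RefSeq windows of 3 of the group, all on the plus strand with the same marks as above, are shown to set the rising member beside the falling ones.
Hoxd4 chr2:74721728-74722027: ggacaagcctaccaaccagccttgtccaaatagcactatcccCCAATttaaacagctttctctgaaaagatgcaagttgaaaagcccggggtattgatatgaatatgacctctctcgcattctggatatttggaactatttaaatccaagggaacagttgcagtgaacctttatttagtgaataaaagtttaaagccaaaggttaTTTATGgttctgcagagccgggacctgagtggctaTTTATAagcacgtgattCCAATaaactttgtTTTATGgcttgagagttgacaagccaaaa
Hoxb4 chr11:96318017-96318316: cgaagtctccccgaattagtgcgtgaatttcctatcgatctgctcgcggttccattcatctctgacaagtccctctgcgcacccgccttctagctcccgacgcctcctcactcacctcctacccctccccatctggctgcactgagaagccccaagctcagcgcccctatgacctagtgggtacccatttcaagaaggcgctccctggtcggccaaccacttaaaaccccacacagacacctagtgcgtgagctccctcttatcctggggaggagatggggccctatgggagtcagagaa
Hoxc4 chr15:103034145-103034444: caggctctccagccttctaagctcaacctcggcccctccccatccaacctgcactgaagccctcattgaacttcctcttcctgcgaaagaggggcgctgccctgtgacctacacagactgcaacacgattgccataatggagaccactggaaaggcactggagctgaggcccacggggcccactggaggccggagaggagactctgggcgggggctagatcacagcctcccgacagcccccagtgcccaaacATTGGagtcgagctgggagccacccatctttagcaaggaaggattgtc

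The Hoxd4 window held a TATA box on the minus strand, the CCAAT box, and 2 matches of the Cdx-type site, which 11.9% of all windows hold. The Hoxb4 window held none of the 3 motifs, and the Hoxc4 window only the CCAAT box, on the minus strand. Over the Hox windows, the Cdx-type site was in 5 of the 18 windows of genes that rose and in none of the 4 windows of genes that fell, and the CCAAT box was in 12 of 18 and 3 of 4. No match says only that these letters are not in this window.

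**Figure D3:**
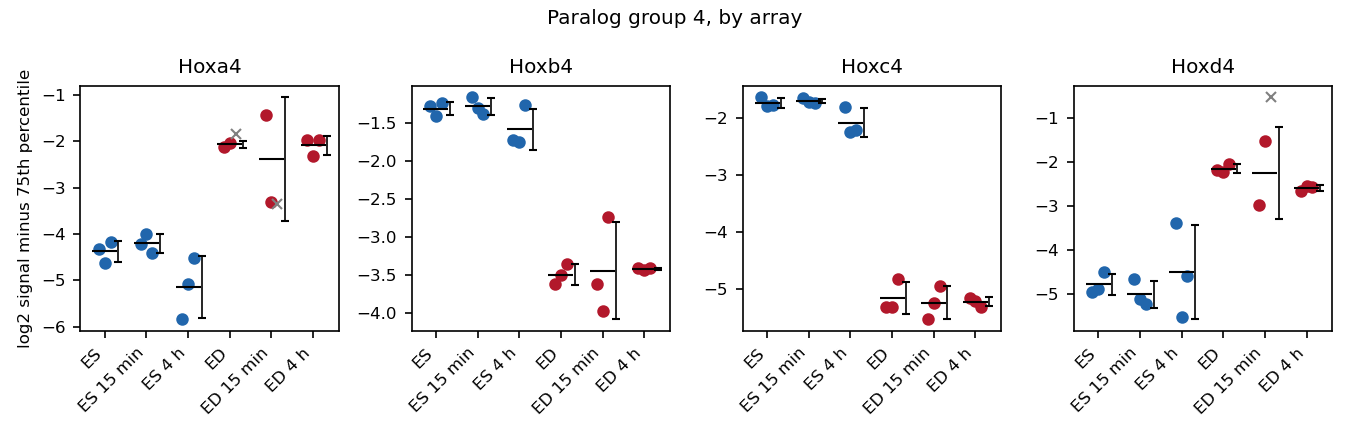
Log2 signal minus the array's 75th percentile (vertical axis, own scale in each panel) for the 4 genes of paralog group 4 on each array by group. Blue points are ES-type and red points ED-type arrays, grey crosses outlier spots, lines group means and bars SD. Hoxa4 and Hoxd4 are higher and Hoxb4 and Hoxc4 lower in every usable ED-type array.

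The split by cell type was also present in the irradiated cells, which share no array with the unirradiated ones. At 15 min, EDRE against ESRE, 15 Hox genes were higher and 7 lower of 29 tested, where 18.6% of all genes tested were higher and 28.1% lower, 46.6% in either direction. At 4 h, EDRL against ESRL, 22 were higher and 9 lower of 35, with 24.5% and 25.0% of all genes and 49.4% in either direction. Of the 19 genes that rose in ED against ES, 17 rose again at 4 h (89.5% of that list and 77.3% of the 22), and of the 9 that fell, 8 fell again (88.9% of each list). None was called in the opposite direction. At 15 min 12 of the 19 and 6 of the 9 were called the same way, with 12 and 8 tested. Arrays with the same scan time are taken as a slide below. With slide as a random block the calls at 4 h went from 31 to 24, without Hoxa6, Hoxa9, Hoxa13, Hoxb2, Hoxc5, Hoxc9 and Hoxc10, of which Hoxa6, Hoxa13, Hoxb2 and Hoxc9 were among the repeated genes (adjusted p = 0.0921, 0.176, 0.143 and 0.0631, limma). At 15 min it left 20 of the 22 calls, without Hoxa9 and Hoxc8. In neither irradiated comparison did a slide hold arrays of both groups. Slide and cell type therefore cannot be told apart within these comparisons, and the slide block does not separate them.

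In all 3 comparisons of ED-type with ES-type cells the genes higher were Hoxa3, Hoxa4, Hoxa5, Hoxa7, Hoxa10, Hoxb3, Hoxb6, Hoxd4, Hoxd9, Hoxd11, Hoxd12 and Hoxd13, and the genes lower were Hoxb1, Hoxb4, Hoxb13, Hoxc4, Hoxc13 and Hoxd1. At 15 min the calls of Hoxa7, Hoxa10, Hoxd9 and Hoxd13 rest on 1 usable EDRE array, with the spread taken from the other groups. Hoxa4 had usable EDRE values of -1.44 and -3.32 there. Its call at 15 min was lost when only the groups compared were fitted and with the methods' t-test. Among 38 Hox probes with at least 6 usable arrays of each type, 20 had every ED-type array above every ES-type array and 7 the reverse, against 15.4% and 20.9% of all probes. Hoxd12 stayed between 1.67 and 3.58 on the 9 ED-type arrays and between -8.41 and -5.80 on the 9 ES-type arrays. Hoxb13 lay between -8.74 and -6.59 on the ED-type arrays and between -2.20 and -1.43 on the ES-type arrays.

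Hoxa9, Hoxa11 and Hoxb7 were called higher in both irradiated comparisons but not in the unirradiated one, where Hoxa11 could not be tested. At 15 min Hoxa11 had 1 usable EDRE spot, 1.13 in the dim replicate 2. Hoxb7 was higher by 1.63 at 15 min (adjusted p = 1.24e-05) and by 1.30 at 4 h (adjusted p = 0.00011), beside its 0.89 without irradiation. At 4 h Hoxc6 was higher by 1.36 and Hoxc10 by 2.71 and Hoxc5 differed by -1.91, and at 15 min Hoxc8 differed by -1.85; the ranges of Hoxc5 and Hoxc8 overlapped between cell types. The calls of Hoxa9 and Hoxc5 at 4 h and of Hoxc8 at 15 min were each kept with 2 of the 6 arrays compared left out in turn. With slide as a random block the adjusted p of Hoxa9 was 0.0556 at 15 min and 0.0554 at 4 h, and that of Hoxc10 at 4 h 0.065, while Hoxa11 and Hoxb7 stayed called at both times. In the test of whether irradiation changed the difference between cell types, none of these 7 genes passed, and Hoxa11 could not be tested.

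**Figure D4:**
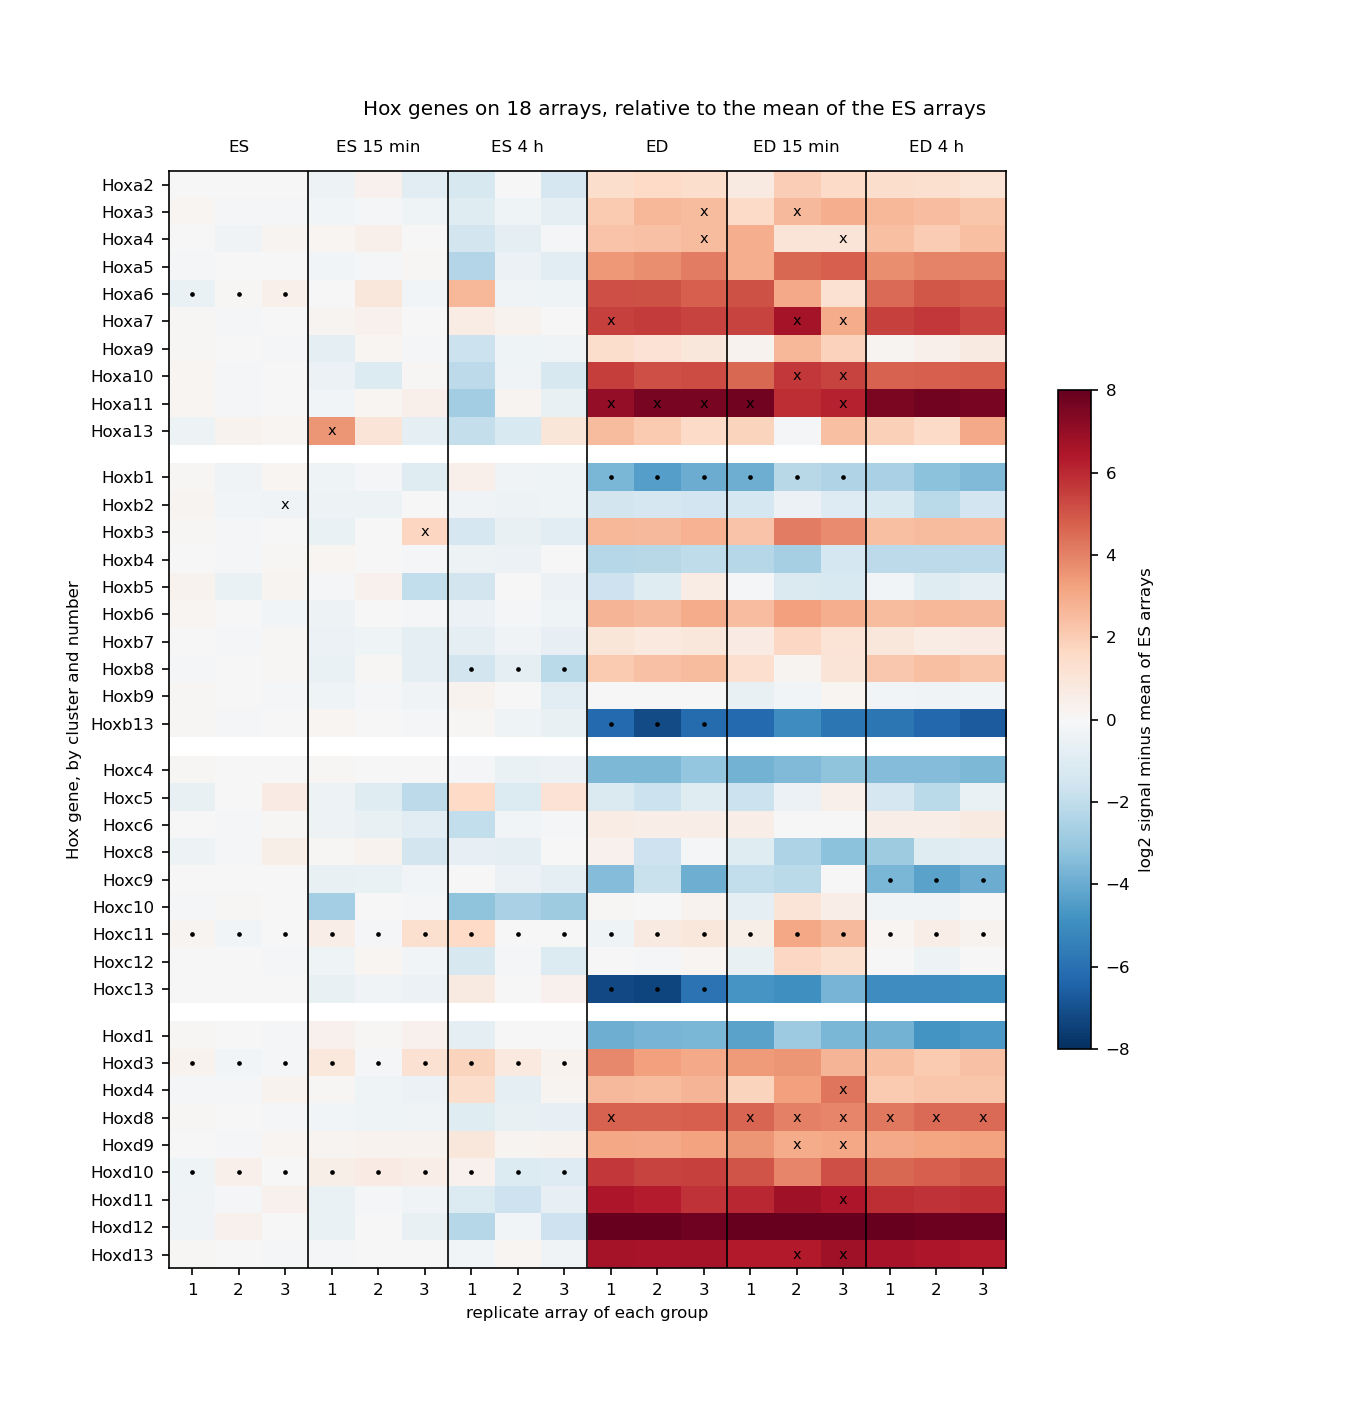
Log2 signal of 38 Hox genes (rows, by cluster and number, brighter probe where there are 2) on 18 arrays (columns, 3 a group), as the difference from the mean of the ES arrays for the same gene, with colours that stop at -8 and 8. Crosses mark outlier spots left out of the tests and dots mark groups where no array was well above background. Hoxa and Hoxd are mostly red and the ends of Hoxb and Hoxc blue across all 9 ED-type arrays, while the ES-type columns are pale, with Hoxc10 at 4 h an exception.

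Slide and cell type were only partly separable. The 3 ED arrays shared a slide (an inference from equal scan times) with replicate 3 of ESRE, and the 3 ES arrays had another. Within that 1 slide, ED minus replicate 3 of ESRE had the sign of the call for all 28 called Hox probes with a usable spot there. It was 8.66 for Hoxd12, 6.68 for Hoxd13, -6.32 for Hoxb13 and -6.38 for Hoxc13, with no test since 1 ES-type array is involved. The same 3 ED arrays had made the calls, and the ESRE array was irradiated. The agreement in sign is therefore not an independent check, and the share over all called probes is not given here. With slide as a random block, 16 Hox genes were higher and 6 lower, and the calls lost included Hoxa2, Hoxa13, Hoxb2, Hoxb8 and Hoxc9. Without replicates 2 and 3 of EDRE the counts were 20 and 9.

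After irradiation at most 3 Hox genes were called in any of 4 comparisons, near the share of all genes called in each. In ES cells at 15 min none of 35 tested Hox genes was called by limma, where 0.463% of all genes tested were (0.290% higher and 0.173% lower). In that comparison 1 of 37 Hox probes had an unadjusted p under 0.05, against 9.45% of all probes, and the methods' t-test with its 2-fold limit called none either before or after adjustment. At 4 h 3 of 35 fell and none rose, against 6.90% of all genes lower and 0.691% higher, 7.59% in either direction. An unadjusted p under 0.05 was found there for 14 of 37 Hox probes, against 25.0% of all probes. In ED cells 1 of 29 fell at 15 min, where 2.23% of all genes were higher and 2.97% lower, 5.20% together. At 4 h 1 of 30 rose in ED cells, where 1.40% of all genes were higher and 0.254% lower, 1.66% together. The Hox probes with an unadjusted p under 0.05 were 4 of 31 at 15 min and 2 of 32 at 4 h, against 26.0% and 13.9% of all probes. When the fit took slide as a random block, no Hox gene was called in any of these 4 comparisons. No ES array shared a slide with an irradiated ES array, nor any ED array with an irradiated ED array. Slide and irradiation therefore cannot be told apart in these comparisons, and the slide block does not separate them.

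Hoxc10 had the largest of these changes. It was -0.92, -0.76 and -0.83 in ES and -4.07, -3.45 and -3.66 in ESRL, a fall of -2.89 on the log2 scale (SE 0.57, adjusted p = 0.00723). At 15 min it was -3.57 in replicate 1 of ESRE but -0.89 and -0.95 in replicates 2 and 3. Replicates 1 and 2 of ESRE share a slide with replicates 2 and 3 of ESRL, and no ES array was on it. Slide and irradiation cannot be told apart for this change. The call held with each ES or ESRL array left out in turn, at -2.72 to -3.03, and its adjusted p was 1 with slide as a random block.

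Hoxc10 in ED cells stayed at -1.10, -1.09 and -0.86 at 4 h, against -0.73, -0.82 and -0.55 without irradiation. The difference of the 4 h response between cell types was 2.58 for Hoxc10 (SE 0.80) and did not pass (adjusted p = 0.147). At 4 h, none of 36 Hox genes tested for such a difference passed in limma, where 0.911% of all genes were higher and 0.246% lower, 1.16% together; 4 of 38 Hox probes had an unadjusted p under 0.05, against 15.2% of all probes. At 15 min 2 of 36 passed, both higher and Hoxc13 among them, where 1.24% of all genes were higher and 0.850% lower, 2.09% together.

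Hoxb8 was -6.94, -6.74 and -6.69 in ES and not well above background in ESRL, at least 1.22-fold lower (adjusted p = 0.0176). It also fell at 15 min in ED cells, from -4.72, -4.47 and -4.29 to -5.46, -6.59 and -5.75, a change of -1.44 (SE 0.34, adjusted p = 0.0279). The -6.59 is the shared lowest value of the dim array, and 1 of the 3 EDRE arrays was well above background. That call was kept with 1 of the 6 ED and EDRE arrays left out, replicate 1 of EDRE, when 8 Hox genes were called, and lost with each of the other 5. At 4 h Hoxb8 was -4.61, -4.36 and -4.55 in ED cells, next to the unirradiated values.

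Hoxd11 was -6.63, -6.45 and -6.04 in ES and -7.47, -8.01 and -7.02 in ESRL, of which 1 was well above background, a change of -1.13 (SE 0.28, adjusted p = 0.025). Hoxd8 was lower in every ESRL array by -0.73 (SE 0.16, adjusted p = 0.0218), under the 2-fold limit. The calls of Hoxb8 and Hoxd11 in ESRL were each kept with 2 of the 6 ES and ESRL arrays left out in turn and lost with the other 4. Without replicate 2 of ESRL 7 Hox genes were called in that comparison, and without replicate 2 or 3 of ES 1 was.

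Hoxc13 was the Hox gene called in ED cells at 4 h. It was not well above background on any of the 3 ED arrays, at -8.92, -9.01 and -7.57. On all 3 EDRL arrays it was well above background, at -6.67, -6.65 and -6.61, at least 1.80-fold higher (adjusted p = 0.00799, limma). These values stayed below the 9 ES-type arrays, which lay between -2.26 and -0.98. Without replicate 2 of ED no Hox gene was called at 4 h.

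**Figure D5:**
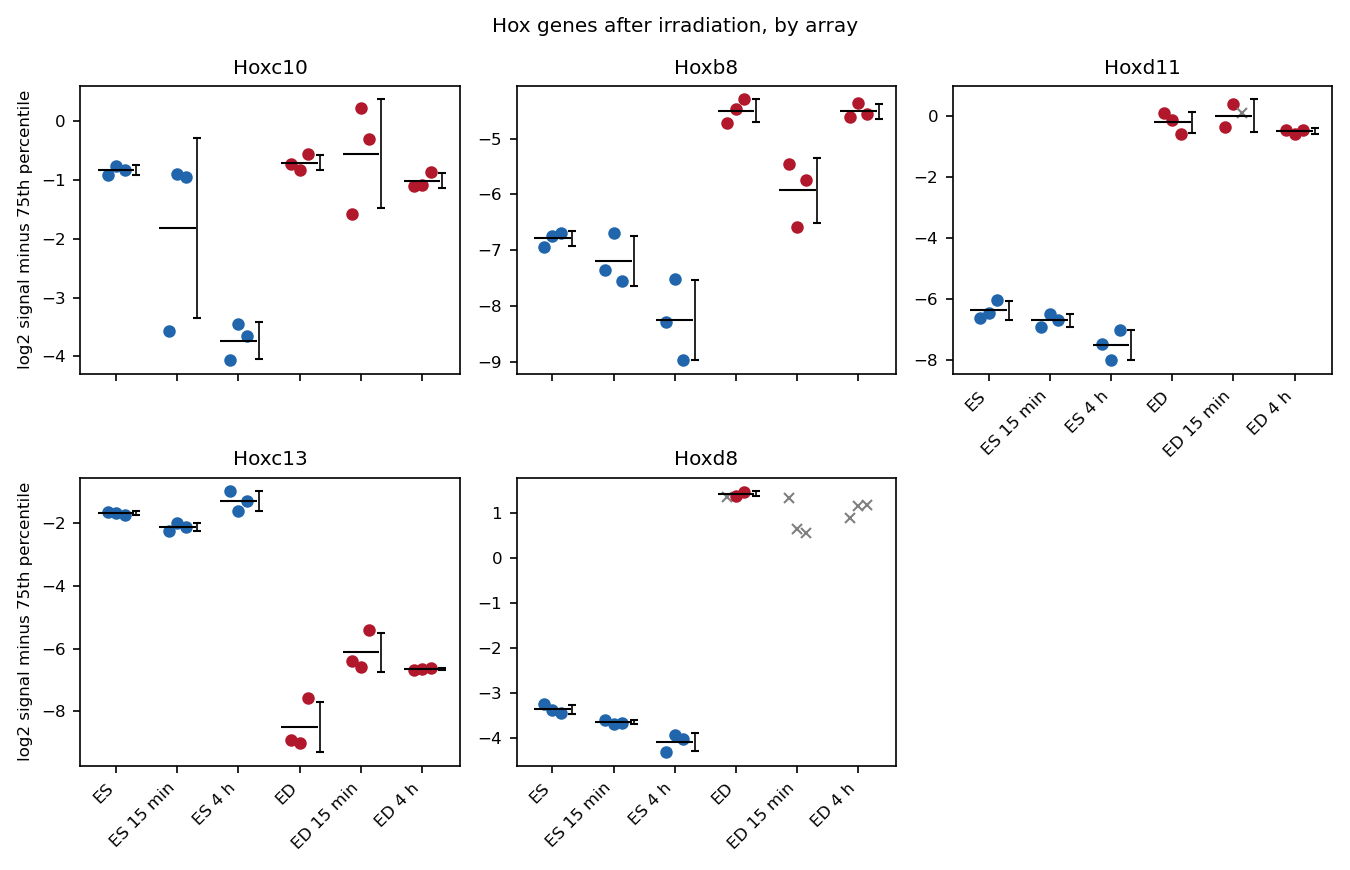
Log2 signal minus the array's 75th percentile (vertical axis, own scale in each panel) on each array by group for 4 Hox genes called after irradiation or in the difference of responses, and for Hoxd8, which stayed under the 2-fold limit. Blue points are ES-type and red points ED-type arrays, grey crosses outlier spots, lines group means and bars SD. Hoxc10 is low in all 3 ES arrays at 4 h and in 1 of 3 at 15 min.

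Genes known to act on or with Hox proteins were read in ED against ES on the same scale, from lists chosen by function. Across all genes tested 14.9% rose and 26.7% fell. Of the TALE cofactors, homeodomain partners that bind DNA with Hox proteins, 3 of 7 tested rose and 2 fell. Pbx3 rose by 1.03 on the log2 scale and Meis2 by 2.55 and 2.16 on 2 probes that were well above background on 1 of 3 ES arrays. On 3 Meis2 probes with no such ES array it was at least 4.02-fold to 5.01-fold higher, and its brightest probe did not pass (1.90, adjusted p = 0.0567). Pbx4 fell by -2.78 on the log2 scale (adjusted p = 1.96e-05), and Pknox2 by -2.42 on 1 of its probes and -0.91, under the 2-fold limit, on the other.

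Of known inducers of Hox genes 1 of 13 tested rose and 9 fell. Egr2, a hindbrain factor, rose by 1.32, and Aldh1a2, which makes retinoic acid, fell by -5.45 and Cdx1 by -4.97 on the log2 scale, both detected in ED. T, Wnt3 and Cyp26a1, which degrades retinoic acid, also fell, but were well above background on only 1, 1 and 2 of the 3 ED arrays, so their sizes are uncertain. Cdx2, like Cdx1 an activator of trunk Hox genes and a relative of the clusters, was not well above background in ED, at least 11.6-fold lower. The median fitted change of the list was -2.47. Polycomb members, which hold the clusters silent, moved both ways, 7 of 20 up, among them Bmi1 (3.61) and Cbx6 (2.21), and 6 down, led by Jarid2 (-5.34), Phc1 (-4.35) and Mtf2 (-3.19). Of 10 Trithorax members and H3K27 demethylases none rose and 2 fell, Wdr5 by -1.89 and Rbbp5 by -1.12. Across all genes tested 14.9% rose and 26.7% fell. The falls among Polycomb and Trithorax members were near that share, while the Polycomb rises were above it.

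The genes beside the clusters were read in the same comparison. Of 11 tested among the nearest coding genes on either side, none was called higher in ED against ES and 4 were lower, where 14.9% of all genes rose and 26.7% fell. The 4 were Ttll6 beside Hoxb by -4.72, Evx1 beside Hoxa13 by -4.05 with 2 of 3 ED arrays well above background, Snx11 by -1.68 and Snx10 by -1.35 on the log2 scale, the last with 1 usable ES array. The median change of the 11 was -0.16, near the -0.19 of all probes. Lnpk, beside Evx2 at the Hoxd13 end, was higher by 0.63 (adjusted p = 0.0109), under the 2-fold limit. Evx2, next to Hoxd13, was not well above background in ES or ED arrays, although Hoxd13 itself rose by 6.64.

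Markers of other cell types moved with the Hox genes. The mean log2 value of the 10 mesenchymal markers was -1.52 to -1.47 in ES and 2.18 to 2.24 in ED, and 10 and 9 of them were detected; the surface protein Thy1 was the 1 that fell. Of 8 neural markers 2 rose and 2 fell, where 14.9% of all genes rose and 26.7% fell. Their mean was -1.94 to -1.67 in ES and -1.28 to -0.76 in ED. All 6 epithelial and all 6 trophoblast markers fell, with means of 4.20 to 4.28 against -6.58 to -6.31 and -1.21 to -1.13 against -6.59 to -6.08, and 5 of 6 tested endoderm markers fell. The part of these cell types in the Hox changes was not tested.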

How the data were processed

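RNA of 18 samples was hybridised to 1-color Agilent arrays, 1 sample each, with no pooling. The deposited intensity (gProcessedSignal) is the authors' scanner signal after background subtraction by Feature Extraction (9.1 in the submitters' processing notes; the file headers name a later version). Precision is limited by how many arrays each group has. The deposited value table (30133 probes, column medians 0.572 to 0.72) was compared with the scanner signals of each array: its values are log2, with slope 1, and sit 0.0446 to 0.0616 from the array's median, an offset whose origin is not known. It served as an alternative. Outlier marks, background marks and the median and background intensity were also used as deposited.

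Control spots were dropped, leaving 37831 spots and 37246 probes. Genes were named by RefSeq accession (22216 probes). Signals were taken as log2 minus the array's 75th percentile, outlier spots were set missing, and group means over all 18 arrays were compared with limma 3.58.1 in R 4.3.3, moderated across probes. A probe was tested where well above background on all arrays of a group of the comparison. Called means a Benjamini-Hochberg adjusted p under 0.05 over all probes and a log2 change over 1, a gene by at least 1 probe. Folds written "at least" set the bright mean against, per dim array, the higher of its own signal and the lowest signal well above background. These bounds, and the fits, leave out missing spots. The adjusted p beside such a fold belongs to the fitted change, and such a gene entered the test through its bright group alone.

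Hox genes called in any of 9 contrasts were named with values, and the brighter probe was described. Some genes are not reported by name here. The members and lists were chosen with earlier results of these data known. Alternatives were median, quantile and normexp scaling (offset 50, on median signals because mean signals are not in the columns used here), detection filters, outlier spots kept, fewer groups, slide or replicate block, the deposited table, the methods' t-test, no limit on the change, probes as the unit, and each array left out. The methods' t-test is the two-sided Student's test of the study. The fit was tested on simulated data. Sequences are RefSeq promoter windows, build GRCm38.p6.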

Additional observations from a re-analysis of the deposited data

Results flagged for a closer look

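Hoxc13 differed between cell types in its response at 15 min, by limma's interaction term. The fitted difference was 2.82 on the log2 scale, ED over ES cells (SE 0.49, adjusted p = 0.0137), where 2.09% of all genes tested passed. The EDRE arrays read -6.38, -6.59 and -5.41 against -8.92, -9.01 and -7.57 in ED, with 1 EDRE array and no ED array well above background, and ESRE read -2.26, -1.99 and -2.12 against -1.64, -1.67 and -1.74 in ES. With no ED array and only 1 EDRE array well above background, the 2.82 is not an exact size. No lower limit can be given for the fold of EDRE over ED. The -6.59 is the shared lowest value of the dim replicate 2 of EDRE. Without replicate 2 of EDRE the difference was 3.05 (adjusted p = 0.0178). Without replicates 2 and 3 of EDRE it was 2.56 (adjusted p = 0.0444), where the 1 EDRE array left is taken to have the spread of the remaining groups. The call was kept with each of the 12 arrays compared left out in turn, at 2.46 to 3.28. With slide as a random block the adjusted p was 1. The part of array brightness in this difference was not tested.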

How the results depend on the processing

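In ED against ES, every alternative kept the count of higher Hox genes within 1.5 times 19, from 16 with the slide block to 22 with quantile or median scaling and 23 with the deposited table. The 9 lower genes became 3 when a probe had to be detected in both groups, since genes not detected in ED then leave the test. That filter also gave 14 of 22 genes in EDRE against ESRE and 15 of 31 in EDRL against ESRL, and the methods' t-test gave 13 (adjusted) and 14 (unadjusted) in EDRE against ESRE.

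The irradiation counts moved with most settings. For ESRL against ES, 3 became 1 with quantile, normexp, the deposited table, detection in both groups or only its own groups fitted, 0 with the slide block or the adjusted t-test, and 6 without replicates 2 and 3 of EDRE, a setting chosen after seeing the data; leaving out 1 array gave 1 (replicate 2 or 3 of ES) to 7 (replicate 2 of ESRL), and 6 without replicate 1 of EDRE. For EDRE against ED, 1 became 3 with no detection filter, 2 with the deposited table, and 0 with quantile, detection in both groups, own groups, the slide block or the adjusted t-test, and 0 to 8 leaving out 1 array. For EDRL against ED, 1 became 2 with own groups or the unadjusted t-test, 0 with quantile, normexp, detection in both groups, the slide block or the adjusted t-test, and 0 (without replicate 2 of ED) to 1. For the difference of responses at 15 min, 2 became 0 with quantile, normexp, detection in every group or the slide block, 1 with no detection filter or without replicates 2 and 3 of EDRE, and 1 to 8 (without replicate 1 of EDRE) leaving out 1 array. At 4 h, 0 became 1 with own groups, and 0 to 1 leaving out 1 array, 1 without replicate 3 of ED, 1 of ESRE, or 2 or 3 of ESRL.

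Of 2877 alternatives over 94 calls of single genes, 2720 kept direction and side of the threshold, 141 lost the threshold, 13 moved and 3 reversed, all with normexp: Hoxb1 (0.47) and Hoxc8 (0.36) in EDRE against ESRE, and Hoxb8 in EDRE against ED (0.44). The cause was not tested. Same-numbered replicates did not deviate together in every pair (r = -0.076, 0.215 and 0.304 in ED against ES), so the numbers do not pair the samples; with the replicate block 20 Hox genes were higher and 9 lower, and 3 changed in ESRL against ES. Signal near background limits the dim arrays of EDRE and ESRL.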
